A study of Mus musculus with 7 samples.

Results

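The wells described here were 148 of 2235 kept wells (6.62%) of sorted gastric epithelium that met a gate for tuft cells. A kept well held at least 1000 unique molecular identifiers (UMIs, tags that mark single captured RNA molecules), spike-ins left out. A gate well held at least 1 UMI of at least 3 of 7 tuft genes: Dclk1, Trpm5, Rgs13, Pou2f3, Avil, Gng13 and Sh2d7. The wells were thus chosen by the UMIs of these 7 genes, whose levels are given as a description, without a test. The cells came from untreated wild-type C57BL/6 mice, whose age and sex the labels do not give. Live (DAPI-negative) cells from 2 stomach regions were sorted 1 to a well into 384-well plates, and their RNA was read by SORT-seq, a plate-based form of the CEL-seq2 protocol that counts UMIs. There were 4 plates labelled corpus and 3 labelled pylorus. The labels do not tie plates to animals, so p-values measure the spread between plates.

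Tuft cells are rare chemosensory cells of the gut and airway epithelium with a brush of stiff microvilli at the apex. They use the signal cascade of taste cells, in which a G protein and phospholipase C release calcium that opens the cation channel TRPM5, and they depend on the transcription factor POU2F3. They are known for making IL-25, cysteinyl leukotrienes, prostaglandins and acetylcholine, through which they signal to immune cells, nerves and neighbouring epithelium.

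The 7 plates held 2646492 to 9511078 UMIs in all wells, and the median kept well held 6899 to 25545 UMIs. Gate wells were few on corpus replicates 1 (3 wells) and 2 (4 wells) and on pylorus replicate 1 (5 wells), and the other 4 plates held 12 to 54. The library labelled corpus replicate 1 held 3340 UMIs of Gast in its kept wells, and the other 6 plates held 0. Gast encodes gastrin, a hormone of the antral stomach, so that library goes against its label, and comparisons of the regions are given with and without it. All plates used the same 384 well barcodes by design, and all 2235 kept wells held distinct counts.

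The gate held a pair of unlike sets of wells. In 49 wells the 7 genes together made 1740 to 18473 CPM (UMIs of a gene scaled to 1000000 UMIs of the well), with a median of 10882 CPM. In the other 99 wells they made 51 to 665 CPM, with a median of 116 CPM, and 3 to 16 UMIs in all. No gate well lay between 665 and 1740 CPM. The sets are called high-marker and low-marker wells here, parted at 1000 CPM after the values were seen, and no test was made between them. The high-marker wells held 17.9% of the UMIs of the gate but 94.7% of its rule-gene UMIs. The low-marker wells were deep, with a median of 36334 UMIs against 16747 in high-marker wells and 18827 in the 2087 other wells.

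**Figure D1:**
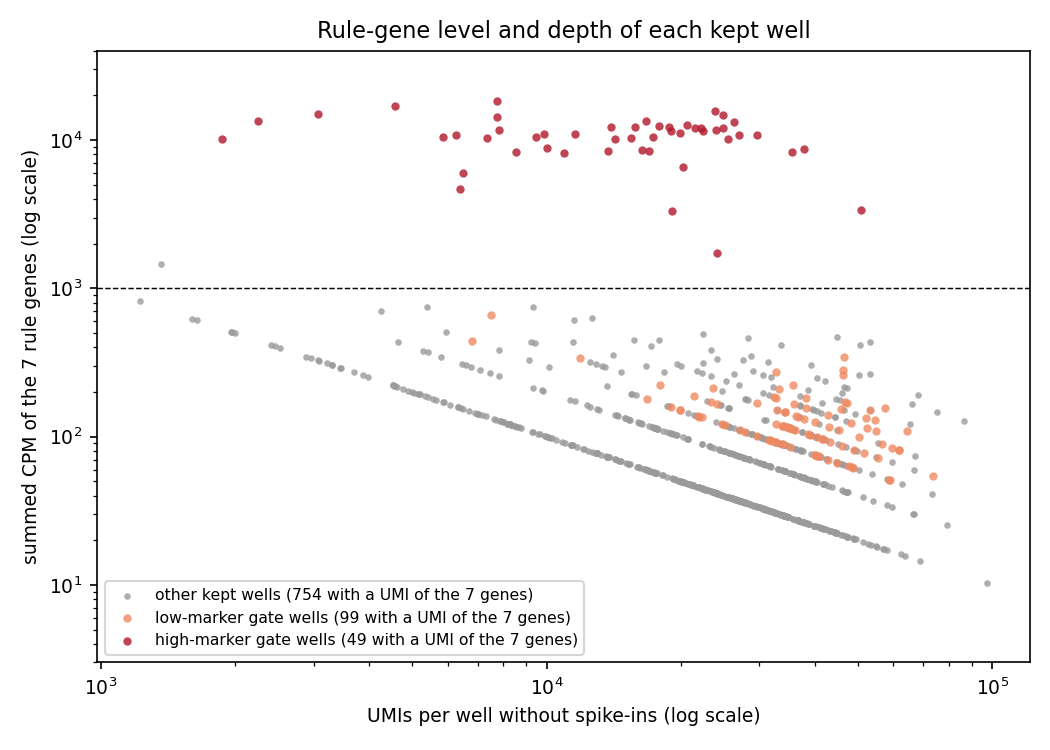
Summed CPM of the 7 rule genes (vertical, log scale) against the UMIs of each kept well (horizontal, log scale), for wells with at least 1 UMI of these genes. The 49 high-marker wells lie at 1740 CPM or more at all depths, while the 99 low-marker wells lie among the 754 other wells, at the deep end of the bands that single UMIs make.

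The edge of the rule fell inside the low range. The 80 wells with exactly 3 rule genes, just inside, held 3 to 13 rule-gene UMIs and a median of 114 CPM. The 176 wells with 2 rule genes, just outside, held 2 to 23 and a median of 90.3 CPM, and none of either reached 1000 CPM. Of the 47 wells with 6 or 7 rule genes all were high-marker wells. One other well passed 1000 CPM, with 2 rule-gene UMIs among its 1365.

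When each well was thinned at random to 1000 UMIs, 47 of the 49 high-marker wells (95.9%) still met the rule at that depth. None of the 99 low-marker wells did, which allows a share of up to 3.03%, and none of the 2087 other wells, which allows up to 0.144%. This follows from the levels that part the sets and is a description. Lrmp, a membrane protein of the endoplasmic reticulum and a tuft marker that the rule did not use, had at least 1 UMI in 49 of 49 high-marker wells, 15 of 99 low-marker wells and 132 of 2087 other wells. Its pooled level was 2105 CPM, 5.28 CPM and 3.77 CPM in these sets. By this marker the label of tuft cells held for the high-marker wells, and the low-marker wells lay near the level of the other wells. Of the 2 low-marker wells of pylorus replicate 1, 1 held 5 UMIs of Lrmp (665 CPM) and the other held none, and together they had 488 CPM of Ltc4s.

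The high-marker wells had a like profile of rule genes on every plate. Over the 7 plates, Dclk1, a microtubule-associated kinase, ranged from 1667 to 5328 CPM with a median of 4031 CPM. Rgs13, a regulator of G protein signalling, ranged from 1310 to 4594 CPM (median 1926 CPM). Trpm5, the taste-cell cation channel, ranged from 953 to 2833 CPM (median 1654 CPM). Avil, the actin-binding protein advillin, ranged from 1068 to 2680 CPM (median 1429 CPM). It was also the rule gene with the highest level outside the gate, 26.5 CPM pooled, with a UMI in 19.6% of the other wells. Sh2d7 ranged from 653 to 1302 CPM (median 1017 CPM). Gng13, the gamma subunit of the taste G protein, ranged from 193 to 1148 CPM (median 388 CPM). The transcription factor Pou2f3 was low, from 60.7 to 417 CPM (median 92.6 CPM), and had a UMI in 33 of 49 wells. Every plate was above the pooled other wells for each of these genes.

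Gate wells were compared with all other kept wells of the same plate, with the counts of each side summed per plate and the plate as a block, in a limma fit on log2(CPM + 2) with scaling by trimmed means of M values (TMM). The 7 rule genes were left out. Of 9229 genes tested, 99 were higher in gate wells (1.07%) and 51 lower (0.553%) at an adjusted p under 0.05. The median difference of all genes was -0.72 on the log2 scale and -0.52 without TMM scaling. The cause of this shift was not tested. Differences are given beside the median of -0.72, while the p-values test against 0. A lower call is thus no test against that median. Low-marker wells supplied 82.1% of the gate's UMIs on the plates together, so gate differences are smaller than those of high-marker wells, whose levels are therefore given beside them. In 22 of the 9229 genes no sum of other wells reached the minimum of the low-count filter (4.54 CPM), so they were tested through the gate wells alone and had to differ. All 22 were among the 99, and of the genes described below they include Gnat3, Plcb2, Ptgs1, Hpgds, Spib, 1810046K07Rik, Pik3r5, Bmx and Strip2, whose counts and tests are no support for their lists. When the rule was applied to the thinned wells and their full counts were then summed, a choice made after seeing the data, 267 genes were higher (3.18%) and 1969 lower (23.5%) of 8389, among them 93 of the 99. With voom weights 311 were higher and 96 lower, and the higher genes held all 99. Which genes met the filter through gate wells alone was checked only for the fit of 9229 genes. Counts of higher genes at equal depth or under other choices of wells are therefore descriptions.

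**Figure D2:**
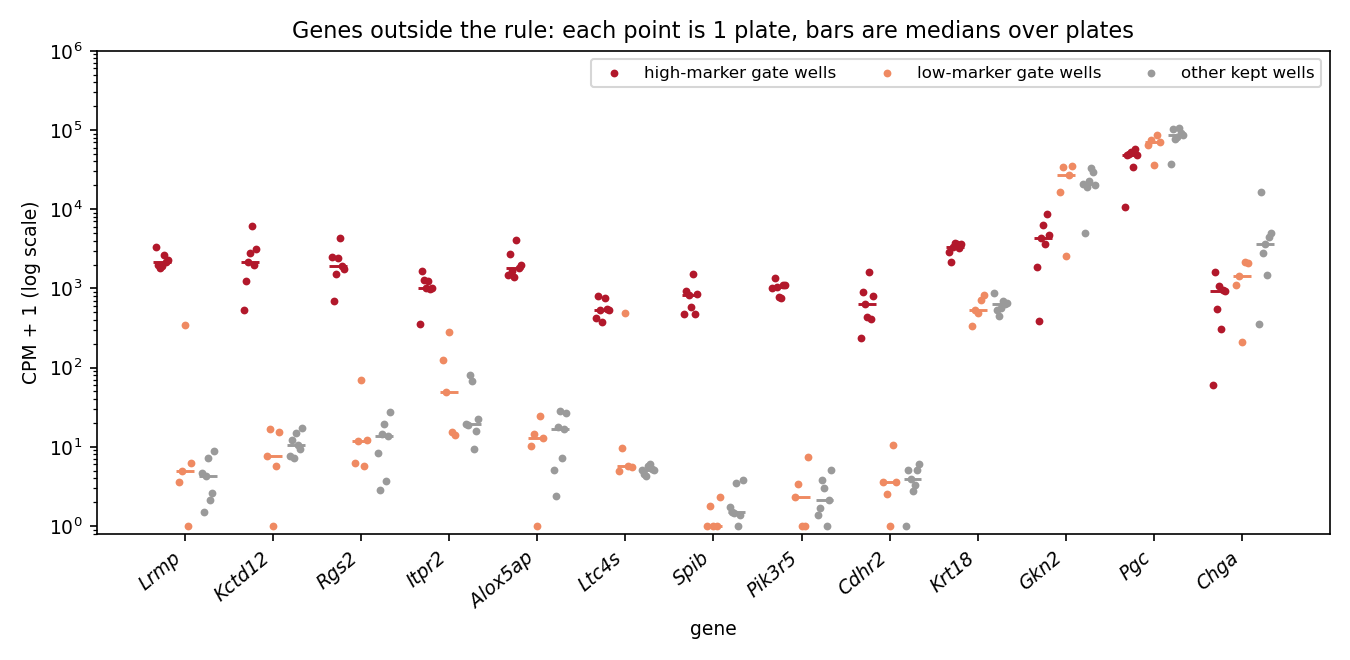
CPM of all UMIs plus 1 (log scale) of 13 genes that the rule did not use, with 1 point a plate and a bar at the median of the plates, for high-marker, low-marker and other wells. The tuft-type genes from Lrmp to Cdhr2 lie at 238 CPM or more on every plate in high-marker wells, while the low-marker points lie mostly among those of the other wells.

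Some genes of taste transduction were high in high-marker wells. Of 17 genes listed, 12 were found and 8 were tested, of which 4 were higher in the gate and none lower, with a median difference of 1.84 against -0.72 for all genes. Among the 4 higher, 2 (Gnat3 and Plcb2) were tested through the gate wells alone and had to differ. They also enter the median and are no support for the list. With the rule at equal depth 3 of 7 tested were higher and 2 lower. The 3 include Gnat3, which averaged 0.09 CPM in other wells. Rgs2, a regulator of G protein signalling, ranged from 695 to 4287 CPM over the plates of high-marker wells (median 1932 CPM), against 1.88 to 26.6 CPM in other wells. The summed level of Rgs2 was higher in high-marker wells on all 7 plates, and its gate difference was 5.54 ± 0.53 (SE, 7 plates, limma adjusted p = 0.000286). Itpr2, a calcium release channel, ranged from 357 to 1660 CPM (median 1022 CPM) in high-marker wells and from 8.50 to 80.4 CPM in other wells, with a gate difference of 3.53 ± 0.47 (adjusted p = 0.00203).

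Gnat3, the taste G protein alpha subunit gustducin, was far lower, at 60.7 to 595 CPM (median 95.1 CPM), but had 95 UMIs in 32 high-marker wells and 4 UMIs in all 2087 other wells. Its gate difference was 4.18 ± 0.54 (adjusted p = 0.00185). Plcb2, the phospholipase of taste cells, ranged from 0 to 241 CPM (median 148 CPM) and was higher by 3.85 ± 0.54 (adjusted p = 0.00286). Itpr3, the release channel that taste buds use, had 57.0 CPM in high-marker wells and 70.0 CPM in other wells, and did not pass (-1.35, adjusted p = 0.23). The sweet and umami receptor subunit Tas1r3 was too low for the test, with 20 UMIs in 12 high-marker wells. The succinate receptor Sucnr1 had 0 UMIs in high-marker wells, which allows up to 3.64 CPM.

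The enzymes of leukotriene and prostaglandin synthesis formed the next group. Of 16 genes listed, 15 were found and 11 were tested, of which 6 were higher and none lower, with a median difference of 1.39. Among the 6 higher, 2 (Ptgs1 and Hpgds) were tested through the gate wells alone and had to differ. Alox5ap, which presents arachidonic acid to 5-lipoxygenase, ranged from 1376 to 4058 CPM (median 1811 CPM) in high-marker wells and from 1.37 to 27.7 CPM in other wells. Its gate difference was 5.48 ± 0.63 (adjusted p = 0.000954). Alox5, the 5-lipoxygenase, ranged from 811 to 1837 CPM (median 1361 CPM), with a difference of 5.10 ± 0.68 (adjusted p = 0.00203). Ltc4s, which makes leukotriene C4, ranged from 372 to 811 CPM (median 539 CPM), with a difference of 4.80 ± 0.42 (adjusted p = 0.000164). On all 7 plates the summed levels of these 3 genes stood above those of the other wells.

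On the prostaglandin side, Ptgs1, the cyclooxygenase COX-1, ranged from 232 to 595 CPM (median 295 CPM) against 0 to 2.77 CPM in other wells, with a gate difference of 5.19 ± 0.57 (adjusted p = 0.000632). Hpgds, the haematopoietic prostaglandin D synthase, passed with 274 CPM in high-marker wells and 2.37 CPM in other wells. Pla2g4a, the phospholipase that frees arachidonic acid, passed with 401 CPM against 57.7 CPM. Lta4h, which makes leukotriene B4, had 23.0 CPM in high-marker wells and 48.1 CPM in other wells and did not pass (-1.77, adjusted p = 0.22). The prostaglandin E synthase Ptges had 0 UMIs in high-marker wells.

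Among 15 cytokine and receptor genes 9 were tested and 1 was higher, Il13ra1, a receptor subunit for IL-13. It ranged from 119 to 618 CPM (median 432 CPM) in high-marker wells, and its gate difference was 2.17 ± 0.41 (adjusted p = 0.0207). The call was lost without corpus replicate 2 (adjusted p = 0.0756), pylorus replicate 1 (0.0806) or pylorus replicate 2 (0.0885). The median of the list, -1.04, lay below that of all genes, and at equal depth 2 of 8 tested were higher and 4 lower. Il25 did not pass the filter on low counts. It had 68 UMIs in 33 of 49 high-marker wells, 0 in low-marker wells and 19 in other wells, and reached at most 121 CPM on a plate (median 76.6 CPM). Il17rb, a subunit of the IL-25 receptor, had 52 UMIs in 23 high-marker wells and 22 in other wells. Tslp had 1 UMI in high-marker wells, and the alarmin Il33 had 2.

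Chat, the enzyme that makes acetylcholine, had 22 UMIs in 13 high-marker wells (26.7 CPM) and 0 UMIs in the 42213242 UMIs of the other wells. Against a floor of 3 UMIs over those wells it was at least 375-fold higher. The choline transporter Slc5a7 had 1 UMI in high-marker wells. Hdc, which makes histamine and is a gene of enterochromaffin-like cells, was lower in the gate by 2.92 on the log2 scale (SE 0.53, adjusted p = 0.0154). The call for Hdc was lost without corpus replicate 1 (adjusted p = 0.0623) or pylorus replicate 1 (0.0838), and without the plate as a block (0.13).

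Of 14 transcription factor genes listed, 13 were found and 8 were tested, of which 2 were higher, with a median of 0.54. Both of the 2 were tested through the gate wells alone and had to differ, so this count is no support for the list. Spib, an ETS factor known from B cells and M cells, ranged from 475 to 1531 CPM (median 827 CPM) in high-marker wells and from 0 to 2.77 CPM in other wells, with a difference of 6.25 ± 0.51 (adjusted p = 8.34e-05). The gene listed as 1810046K07Rik, whose product is known as a coactivator that works with POU2F3, ranged from 192 to 476 CPM (median 264 CPM) and was higher by 4.89 ± 0.53 (adjusted p = 0.000615). The homeobox gene Hmx2 (65 UMIs in 29 high-marker wells) and Gfi1b (39 UMIs in 24 wells) were too low for the test. Sox9, at 1141 CPM in high-marker wells and 344 CPM in other wells, did not pass in the gate (0.29, adjusted p = 0.31). Hes1, a Notch target, had 14.5 CPM in high-marker wells and 170 CPM in other wells, and did not pass (-2.98, adjusted p = 0.15).

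POU2F factors bind the octamer ATGCAAAT, so its letters were searched on both strands in the window of RefSeq promoters (assembly GRCm38.p6) from 250 bases before to 50 after each start. It was present in 1.97% of all 27025 genes with a window and in 1.65% of 7022 tested genes with one. Of the 99 higher genes 74 had a window and 4 held it (5.41%), while 3 of 41 lower genes with a window did (7.32%). None of the 6 rule genes with a window held it. A match describes letters and not a bound site. Of the 4, 3 promoters of genes described here are shown with the octamer in capitals, in either orientation and 5′ to 3′ on the gene's strand. They lie at chr9:51328869-51329168 (minus strand, with 2 octamers), chr6:65144681-65144980 (minus strand) and chr14:102982588-102982887 (minus strand), in this order:
1810046K07Rik: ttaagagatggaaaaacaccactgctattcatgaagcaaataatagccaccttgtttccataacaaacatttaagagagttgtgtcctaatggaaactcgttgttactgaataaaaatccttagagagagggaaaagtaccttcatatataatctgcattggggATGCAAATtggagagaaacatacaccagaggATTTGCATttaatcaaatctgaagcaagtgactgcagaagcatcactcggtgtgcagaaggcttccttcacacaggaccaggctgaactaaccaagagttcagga
Hpgds: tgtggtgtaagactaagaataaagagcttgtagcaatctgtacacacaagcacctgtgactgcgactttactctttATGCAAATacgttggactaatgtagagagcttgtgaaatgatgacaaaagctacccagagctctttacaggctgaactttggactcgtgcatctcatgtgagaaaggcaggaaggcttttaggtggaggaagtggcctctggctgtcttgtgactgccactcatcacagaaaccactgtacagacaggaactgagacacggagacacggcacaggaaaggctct
Kctd12: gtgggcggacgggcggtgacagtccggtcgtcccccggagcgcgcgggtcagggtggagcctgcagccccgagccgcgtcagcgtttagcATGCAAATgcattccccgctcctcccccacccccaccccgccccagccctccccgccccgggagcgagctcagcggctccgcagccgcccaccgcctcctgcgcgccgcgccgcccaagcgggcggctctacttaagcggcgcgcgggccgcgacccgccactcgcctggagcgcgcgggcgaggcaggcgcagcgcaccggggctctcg

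The brush cytoskeleton was represented by 17 tested genes of 19, of which 6 were higher and none lower (median 0.51), and at equal depth 8 of 16 were higher and 2 lower. Cdhr2, a protocadherin that links microvilli, ranged from 238 to 1608 CPM (median 636 CPM) in high-marker wells and from 0 to 4.99 CPM in other wells, with a difference of 5.25 ± 0.45 (adjusted p = 0.000125). Tuba1a, an alpha tubulin, ranged from 618 to 1538 CPM (median 1012 CPM), with a difference of 3.36 ± 0.38 (adjusted p = 0.000873). Espn, an actin bundler, was higher by 2.38 ± 0.31 (adjusted p = 0.00193). Ezr, the microvillar linker ezrin, had 242 CPM in high-marker wells against 725 CPM in other wells and did not pass (-1.48, adjusted p = 0.18).

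Signalling genes best known from blood cells were also high in high-marker wells. Of 23 genes listed, 22 were found and 17 were tested, of which 12 were higher and none lower, with a median of 3.30. Among the 12 higher, 3 were tested through the gate wells alone and had to differ, Pik3r5 and Bmx among them. In the 108 mast wells described below the list summed to 3076 CPM, against 10286 CPM in high-marker wells and 191 CPM in other wells. Inpp5d had 331 CPM in these mast wells and 332 CPM in high-marker wells. Pik3r5, a regulatory subunit of phosphoinositide 3-kinase gamma, ranged from 766 to 1351 CPM (median 1053 CPM) in high-marker wells, with a difference of 6.44 ± 0.50 (adjusted p = 7.60e-05). Pik3cg, the catalytic subunit of the same kinase, was higher by 5.15 ± 0.41 (adjusted p = 8.29e-05).

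The adaptor Fyb ranged from 417 to 1814 CPM (median 1204 CPM) and the kinase Bmx from 190 to 536 CPM (median 298 CPM). Their gate differences were 5.97 ± 0.46 and 5.08 ± 0.52 (adjusted p = 7.60e-05 and 0.000455). Ptprc, the pan-leukocyte phosphatase CD45, had 302 UMIs in 35 of 49 high-marker wells (366 CPM) against 11.5 CPM in other wells, and did not pass in the gate (2.54, adjusted p = 0.15). The library labelled corpus replicate 1 held 0 UMIs of it in its 3 high-marker wells, and without that library the adjusted p was 0.0477. Siglec5, the name in the tables for the gene known as Siglecf, was not tested and had 581 CPM in high-marker wells and 1.61 CPM in other wells.

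**Figure D3:**
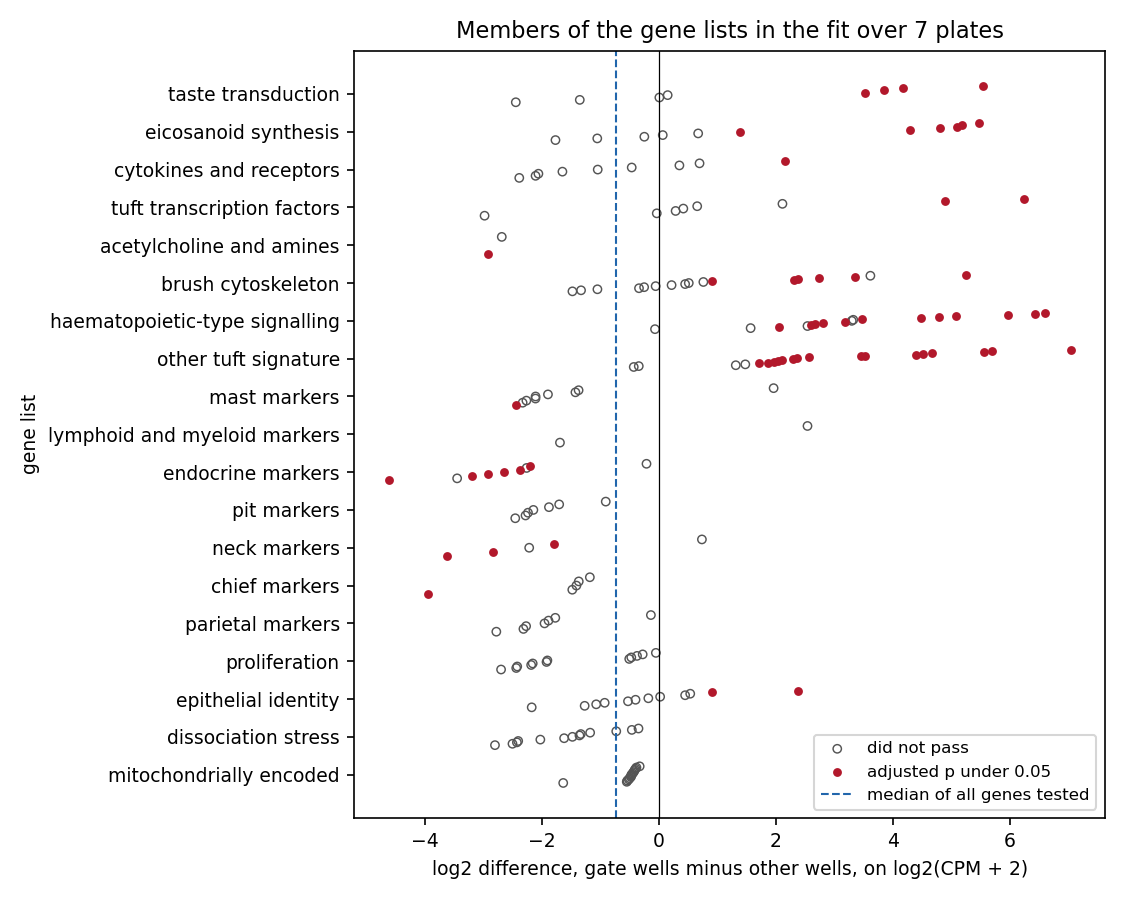
Log2 difference of gate wells minus other wells (horizontal, on log2(CPM + 2)) for each tested member of 19 gene lists, with filled points for members at an adjusted p under 0.05 and a dashed line at the median of all genes, -0.72. Filled points to the right are in the tuft-type and epithelial lists, and those to the left are in the endocrine, neck, chief, mast and amine lists.

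Most markers of blood cells outside this group had no UMI in high-marker wells. Of 14 lymphoid and myeloid markers found 11 had 0 UMIs, among them Cd3e, Cd79a, Lyz2 and Cd52, and the list's summed level of 383 CPM (0 to 532 CPM over the plates) came mostly from Ptprc. Cd79b, a subunit of the B cell receptor complex, had 12 UMIs in 7 of 49 high-marker wells (14.5 CPM) and 2 UMIs in all 2087 other wells, and Cd74 had 2 UMIs in high-marker wells. The 9 stromal and endothelial markers made 2.42 CPM, with 7 of 9 at 0. Of 14 epithelial genes 12 were tested, 2 were higher and none lower, and at equal depth 4 were higher and 5 lower. Epcam had 550 CPM and a UMI in 48 of 49 high-marker wells, and the keratin Krt18 ranged from 2124 to 3731 CPM (median 3299 CPM) against 446 to 883 CPM in other wells. Krt18 was higher in the gate by 0.91 ± 0.16 (adjusted p = 0.0148), a call lost when corpus replicate 3 or 4 was left out (adjusted p = 0.0761 and 0.0917), or pylorus replicate 2 or 3 (0.124 and 0.0866). Cldn7, a claudin, was higher by 2.39 ± 0.47 (adjusted p = 0.0268), and that call was lost without any 1 plate except corpus replicate 1. Other epithelial genes did not pass in the gate: the keratin Krt19 had 92.1 CPM in high-marker wells against 529 CPM in other wells (-2.17, adjusted p = 0.21), and the transcription factor Gata4 119 CPM against 218 CPM (-1.07, adjusted p = 0.20).

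Other genes known from tuft cells moved with them. Of 24 listed, 20 were tested, 16 were higher and none lower, with a median of 2.33. Among the 16 higher, 4 were tested through the gate wells alone and had to differ, Strip2 among them. Lrmp had the largest difference of all genes under the naming rule, 7.05 ± 0.48 (adjusted p = 6.08e-05), and ranged from 1814 to 3334 CPM (median 2175 CPM) over plates of high-marker wells. Kctd12, an auxiliary subunit of GABA-B receptors, ranged from 536 to 6048 CPM (median 2180 CPM) and was higher by 5.56 ± 0.31 (adjusted p = 1.33e-05). Strip2 was higher by 5.70 ± 0.43 (adjusted p = 7.60e-05) and Nrgn, neurogranin, by 5.19 ± 0.51 (adjusted p = 0.000346). Adh1, an alcohol dehydrogenase named after its values were seen, had 7107 CPM in high-marker wells, 155 CPM in low-marker wells and 98.7 CPM in other wells, and was higher in the gate by 4.43 ± 0.36 (adjusted p = 8.29e-05).

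Several products of other gastric cells were lower. Of 16 endocrine genes 9 were tested and 6 were lower, none higher. Chgb, a granin of secretory granules, was lower (-4.62, SE 0.80, adjusted p = 0.0125), with 17.0 CPM in high-marker wells and 439 CPM in other wells. Insm1, an endocrine transcription factor, was at -3.19 (SE 0.52, adjusted p = 0.00876) and Scg5 at -2.64 (SE 0.48, adjusted p = 0.0156), a call lost without corpus replicate 4 (0.0515) and without the plate as a block (0.0937). The call for Chgb was lost without corpus replicate 1 (adjusted p = 0.0533) or pylorus replicate 1 (0.0762). Slc18a2, the vesicular monoamine transporter, was at -4.51 (SE 0.69, adjusted p = 0.00542). Cpe, a prohormone-processing carboxypeptidase of the same list, lay the other way in high-marker wells, with 556 CPM against 112 CPM in other wells, and did not pass in the gate (-0.21, adjusted p = 0.81).

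Of 5 tested neck genes 3 were lower. Gkn3, a gastrokine of neck cells, was at -3.62 (SE 0.52, adjusted p = 0.00348), Muc6, the gland mucin, at -2.83 (SE 0.32, adjusted p = 0.000794) and A4gnt, which caps gland mucin sugars, at -1.79 (SE 0.35, adjusted p = 0.0268). The call for A4gnt was lost without corpus replicate 1, pylorus replicate 1 or pylorus replicate 2 (adjusted p = 0.0529, 0.062 and 0.0603), and that for Gkn3 without the plate as a block (0.061) and on plates with at least 5 gate wells (0.0722). Cd44, a hyaluronan receptor of the same list, had 211 CPM in high-marker wells against 25.7 CPM in other wells and did not pass (0.74, adjusted p = 0.41). Pga5, a pepsinogen, was the 1 of 5 tested chief genes that was lower (-3.95, SE 0.81, adjusted p = 0.0332). It lost the call without corpus replicate 1, 2 or 3 or pylorus replicate 1 (adjusted p = 0.0925, 0.0937, 0.0544 and 0.154). Further genes among the 10 lowest named were Nov (-4.58), Pappa2 (-3.71), Resp18 (-3.64), Spp1 (-3.45), Cel (-3.30) and Gc (-3.25). Pappa2 lost the call without pylorus replicate 1 (adjusted p = 0.0824) or 2 (0.0627), and Spp1 without corpus replicate 2 (0.185), pylorus replicate 1 (0.19) or 2 (0.0957).

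The pit, parietal, proliferation, stress and mitochondrial lists had no passing member in the gate. With the rule at equal depth, where 23.5% of all genes were lower, 7 of 7 tested pit genes, 6 of 7 parietal, 9 of 12 proliferation, 11 of 13 stress and 15 of 15 mitochondrial genes were lower. Of the pit genes Gkn2, a gastrokine of surface cells, showed how the sets differ: it had 5381 CPM pooled in high-marker wells (386 to 8771 CPM over plates), 30606 CPM in low-marker wells and 20873 CPM in other wells. Its gate difference was -1.88 (adjusted p = 0.21), and with the rule at equal depth it was -3.25 (adjusted p = 7.06e-06). Tff1, the trefoil peptide of pit cells, was at -1.70 (adjusted p = 0.21), and at equal depth at -2.96 (adjusted p = 1.32e-05). The parietal proton pump subunit Atp4b was at -2.78 (adjusted p = 0.14) and the carbonic anhydrase Car2 at -1.77 (adjusted p = 0.19), and at equal depth they were at -4.11 (4.81e-05) and -2.50 (0.000231). Pcna was at -0.28 (adjusted p = 0.64), Stmn1 at -0.51 (0.31), Jun at -0.73 (0.21) and Jund at -0.35 (0.31). At equal depth Stmn1 (-1.70, adjusted p = 0.0366) and Jun (-2.02, 0.000383) were lower, and Pcna (-1.54, 0.09) and Jund (-1.27, 0.148) did not pass. The abundant pepsinogen C transcript Pgc was still found in every high-marker well, at 10538 to 57805 CPM over plates, against 84319 CPM in the other wells. Whether free RNA carried it into these wells was not tested.

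Mast cells also make leukotrienes and prostaglandin D2, so wells of a mast gate were compared with the tuft gate for these shared genes. The mast gate asked for at least 3 of Cpa3, Mcpt1, Mcpt2, Ms4a2, Fcer1a and Cma1, and 396 wells met it. It was also met by 2 high-marker and 39 low-marker wells, which were left out of the comparison. Of the 355 mast-gate wells outside the tuft gate, 108 had at least 1000 CPM of the mast genes. The sums held wells above and below that level. Gata2 averaged 256 CPM in the mast-gate sums, against 1925 CPM pooled in the 108 wells. The fit thus compares 2 gates, both with many low-marker wells. Over 6 plates, 60 of 6315 genes were higher in tuft-gate wells (0.95%) and 24 lower (0.38%) by limma. Among the largest differences were those of Lrmp (7.20 ± 0.68), Pik3r5 (6.59 ± 0.46), Spib (6.52 ± 0.48), Cdhr2 (5.95 ± 0.49) and Kctd12 (5.84 ± 0.91), all with an adjusted p of 0.0262 or less. The call for Kctd12 was lost without corpus replicate 3 (0.11) or 4 (0.0948) or pylorus replicate 2 (0.153) or 3 (0.0786). On the mast side stood Gata2 (-5.94), the protease Tpsb2 (-5.74), the IL-33 receptor Il1rl1 (-5.68), Srgn (-5.57), Prkcb (-5.55) and Rgs1 (-5.34). Of these, Tpsb2, Il1rl1, Srgn and Prkcb lost the call when single plates were left out (adjusted p up to 0.0682, 0.0963, 0.0927 and 0.0632). Pik3r5, Spib and Cdhr2 averaged 1.93, 0.963 and 1.73 CPM in the mast-gate sums. Gata2, Srgn, Prkcb and Rgs1 averaged 1.89, 2.66, 3.27 and 1.08 CPM in tuft-gate wells. Which genes of this fit met the low-count filter only through the side where they are high was not checked, so such calls are descriptions.

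Levels of the eicosanoid genes were set side by side. In 108 mast-gate wells with at least 1000 CPM of the mast genes, a set chosen after the values were seen, Alox5 had 1065 CPM against 1343 CPM in high-marker tuft wells. Alox5ap had 914 CPM against 1780 CPM, and Hpgds 155 CPM against 274 CPM. Ltc4s had 12.4 CPM against 500 CPM, and Ptgs1 39.3 CPM against 297 CPM. In the fit Ltc4s was higher in tuft-gate wells by 5.29 ± 0.67 (adjusted p = 0.011) and Ptgs1 by 5.19 ± 0.68 (adjusted p = 0.0134), while Hpgds did not pass (1.94, adjusted p = 0.44). These mast wells were shallow, with a median of 3718 UMIs. Kit, the stem cell factor receptor, had 200 CPM in high-marker tuft wells, 1327 CPM in these mast wells and 26.2 CPM in other wells. Counts of this comparison were lower without corpus replicate 3 (26 higher), corpus replicate 4 (29), pylorus replicate 2 (20) or pylorus replicate 3 (31), and higher without corpus replicate 1 (101).

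**Figure D4:**
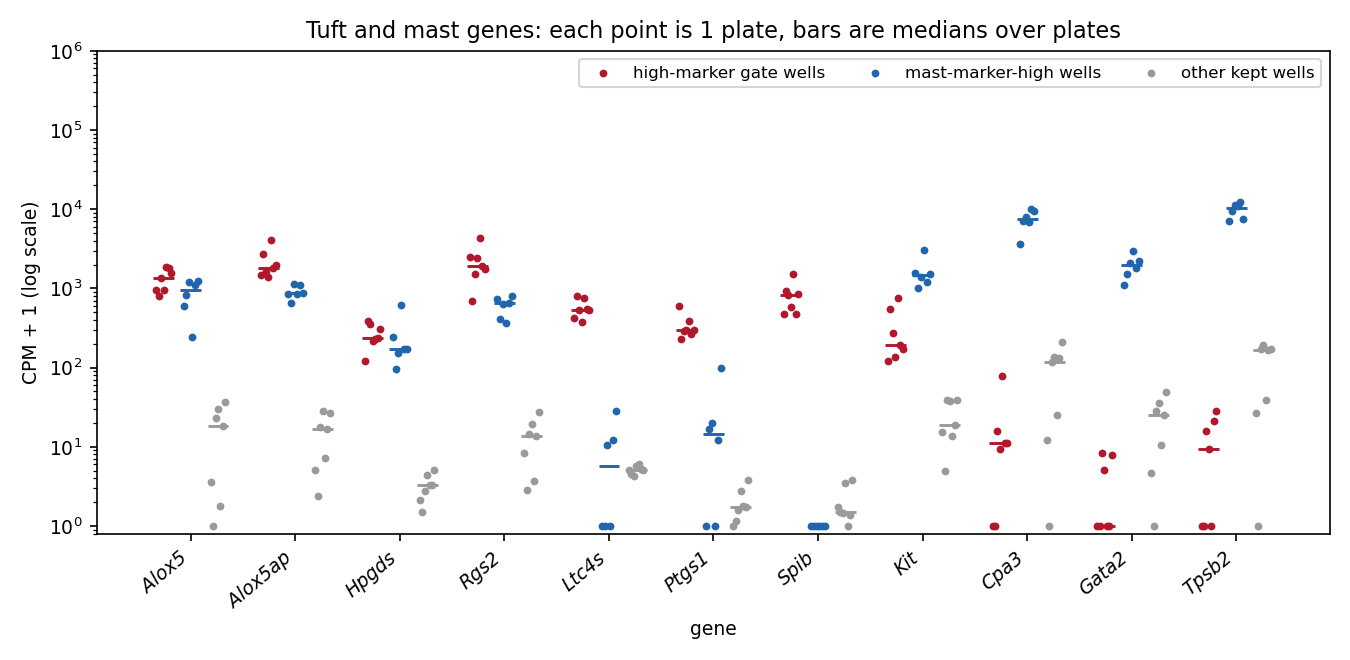
CPM of all UMIs plus 1 (log scale) of 11 genes, with 1 point a plate and a bar at the median of the plates, for the 49 high-marker wells, the 108 mast wells with at least 1000 CPM of mast genes, and other wells. Alox5, Alox5ap, Hpgds and Rgs2 are high in both, Ltc4s, Ptgs1 and Spib lie higher in the tuft wells, and Kit, Cpa3, Gata2 and Tpsb2 in the mast wells.

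High-marker wells differed among themselves in genes that the rule did not use. Siglec5 and Ptprc varied together over the 49 wells (Pearson 0.68, Spearman 0.62 on log2(CPM + 50)), as did Siglec5 with Pate4 (0.64 and 0.60). Within the 39 high-marker wells of the 4 plates with 12 or more gate wells the Pearson values were 0.65 and 0.59. The wells share plates and differ in depth, and Siglec5 itself had a Pearson correlation of 0.31 with the log2 UMIs of the well and Ptprc of 0.29, so these values are descriptions without a test. Nrep, a neuronal regeneration protein, was at 1000 CPM or more in 8 wells. Siglec5 had a UMI in 2 of these 8 wells and in 35 of the other 41. Pate4 had a UMI in 3 of 8 and 34 of 41, and Ptprc in 2 of 8 and 33 of 41. The 8 wells were shallower, with a median of 9007 UMIs against 16942, and the part of depth in these counts was not tested. Lgr5 had a UMI in 2 of 8 and 22 of 41 wells, and Rac2 in 4 of 8 and 40 of 41. Trpm5 and Lrmp had a UMI in all 8 and in all 41. The median level of Trpm5 was 1064.5 CPM in the 8 wells and 1627.6 CPM in the 41. The 3 high-marker wells of the library labelled corpus replicate 1 were among those highest in Nrep, with 1965 CPM summed, and held 0 UMIs of Siglec5.

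The share of gate wells was compared between the regions over plates. Gate wells were 5.72% ± 5.71 (SD, n = 4) of kept wells on corpus plates and 6.64% ± 6.95 (SD, n = 3) on pylorus plates. The plates ranged from 1.08% (95% Wilson interval 0.368% to 3.12%) in corpus replicate 1 to 14.6% (11.4% to 18.6%) in pylorus replicate 3. The difference of 0.921 percentage points had p = 0.8 in a two-sided exact permutation test over 35 splits, whose smallest possible p is 0.0286. Its sign turned without corpus replicate 1 (-0.626), corpus replicate 2 (-0.508) or pylorus replicate 3 (-3.07). The low-marker wells were 0 on corpus replicates 1 and 2 (median kept well of 6899 and 19648 UMIs), 0.8% on pylorus replicate 1 (8240 UMIs) and 1.37% on pylorus replicate 2 (20326 UMIs). They were 4.71% and 10.2% on corpus replicates 3 and 4 (25381 and 25545 UMIs) and 11.1% on pylorus replicate 3 (23400 UMIs). The part of depth in these shares was not tested. High-marker wells alone were 2.00% ± 0.89 (n = 4) and 2.22% ± 1.19 (n = 3), given without a test. With the rule applied at equal depth, the shares were 2.00% ± 0.89 and 2.03% ± 1.08 (exact permutation p = 0.857).

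**Figure D5:**
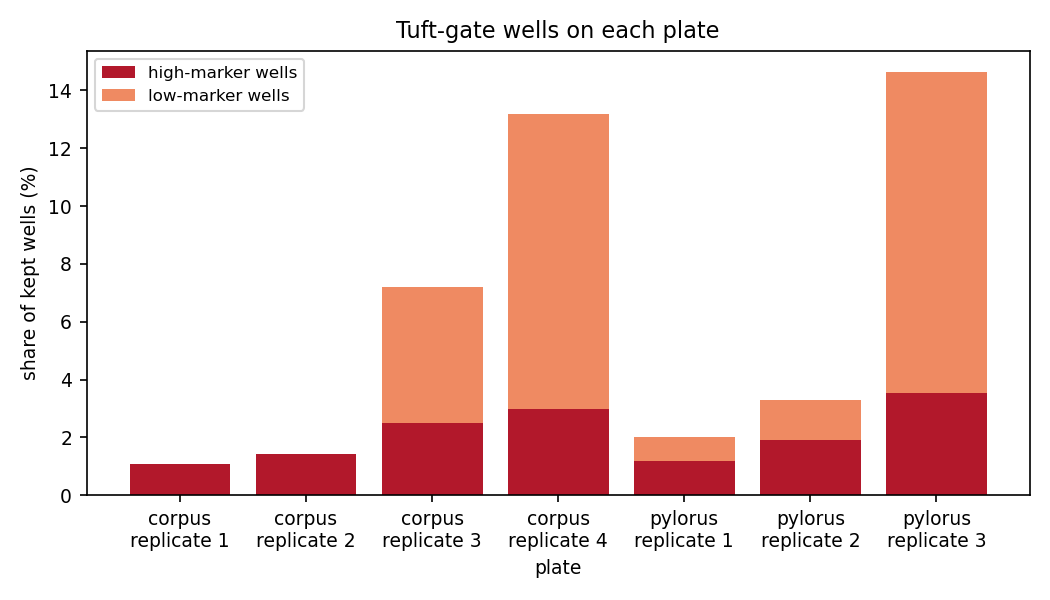
Share of kept wells (%) on each plate that were high-marker or low-marker gate wells, stacked. The high-marker share lies between 1.08% and 3.52% on all 7 plates, while the low-marker share runs from 0 to 11.1%.

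Gate wells of the pylorus and the corpus were also compared gene by gene. Of 4479 genes tested over 4 and 3 plates, 0 passed by limma (0.0%), 10 had an unadjusted p under 0.05, and with voom weights 1 passed, Il33. The 3 genes with the smallest p were Il33 (4.02 ± 4.89 CPM in corpus, SD, n = 4, and 74.5 ± 39.9 CPM in pylorus, SD, n = 3), Zmiz1 (197 ± 34.4 CPM and 83.5 ± 51.6 CPM) and Gclc (136 ± 29.6 CPM and 243 ± 14.3 CPM), each with a limma adjusted p of 0.958. Il33 came from the low-marker wells: high-marker wells held 2 UMIs of it and low-marker wells 185. Without corpus replicate 1, 0 of 5914 genes passed. On the 4 plates with 12 or more gate wells, 2 of each region, 17 of 8137 passed, 13 of them higher in pylorus. Ifit1 and Isg15, interferon-induced genes named after their values were seen, were among those 13, and were also higher in the other wells of both pylorus plates than of both corpus plates (67.6 and 60.5 CPM of Ifit1 against 22.2 and 16.9 CPM). Fewer cells of a type in a sum and less RNA per cell cannot be told apart here.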

How the data were processed

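SORT-seq counts UMIs per gene and well. The deposited tables, 1 a plate, hold whole numbers read here as UMI counts that the authors did not normalize. Their layout did not allow the automatic check of count units, so the quasi-likelihood count fit that had been planned was replaced by its planned stand-in, limma 3.58.1 (R 4.3.3). No gene exceeded 4095 UMIs in a well, and whether the most abundant genes reached a limit of distinct UMIs was not tested. The submitters' processing notes name the build mm9. Aligner and counter: not given in the sources used here. Wells with at least 1000 UMIs were kept, with no mitochondrial limit and no doublet caller, since a sorter filled each well.

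Counts were summed per plate and set of wells, with plates of at least 3 gate wells, a filter of 10 counts at the median library and 15 in total, TMM scaling (trims of 30% and 5%), a pseudocount of 2 CPM, a mean trend and Benjamini-Hochberg adjustment. CPM in fits and beside SDs of the regions are TMM-scaled, and other CPM are of all UMIs. Differences are on the log2(CPM + 2) scale, where the added 2 CPM draws those of low genes toward 0. The 10 lowest named genes nevertheless all had smaller drops with voom weights. They ran from -2.24 (Spp1, against -3.45) to -3.52 (Nov, against -4.58), while the 15 highest named genes moved either way. On simulated data the fit recovered 2.99% of genes changed 2-fold, 59.7% of 4-fold and 100% of 16-fold in the gate comparison (9229 genes). In that of the regions (4479 genes) it recovered 1.49%, 8.96% and 28.8%. The changed genes were drawn from the more abundant ones, with a single dispersion and no plate effects. The shares thus do not cover low genes.

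The members and the 20 gene lists were chosen with earlier results of these data known. Named genes were the 15 highest and 10 lowest passing genes with at least 50 CPM on one side and one sign in every plate (6 and 6 for mast wells and regions, or the 3 smallest p), up to 4 passing members of each list or its 2 most abundant, the rule genes and Lrmp. Some genes that this rule names are not reported here. Other genes named are list members outside this rule or are said to be chosen afterwards. Intervals and floors of 3 UMIs cover counting error only. Strand of counting is not given, and near-identical or overlapping genes may share reads.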

Additional observations from a re-analysis of the deposited data

Results flagged for a closer look

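Over the 4 corpus plates, 64 values were checked for 1 plate far from the other 3 (by Dixon's ratio of gap to range), and 11 stood apart. For normally spread values chance flags about 1 in 20 groups. A gene with UMIs on 1 plate and none on the other 3 is always flagged, so the 11 values are not set against that rate. All but 1 of these values were levels in high-marker wells at their highest plate. In the library labelled corpus replicate 1, with 3 such wells, Lrmp reached 3334 CPM, Nrep 1965 CPM and Gnat3 595 CPM. Corpus replicate 2 held the highest level of Cel and Scg5 (116 CPM each), corpus replicate 3 that of Resp18 (7.31 CPM), and corpus replicate 4 that of Pga5 (20.7 CPM), Cd74, Cma1 and Slc18a2 (4.13 CPM each), all on few UMIs. The stress gene Jund was lowest on corpus replicate 1, at 179 CPM.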

How the results depend on the processing

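Against the 99 genes higher and 51 lower in gate wells, asking for at least 4 rule genes gave 200 and 935, applying the rule at equal depth (added after seeing the data) 267 and 1969, voom weights 311 and 96, and corpus replicates 3 and 4 with pylorus replicates 2 and 3 alone 409 and 317. Thinning the chosen wells to 1000 UMIs left 1792 genes, with 18 higher and 32 lower. The lower count alone moved by over 1.5 times with comparison wells free of the 7 genes (155), without a filter (551), with a pseudocount of 0.5 (29) and without wells of the mast or endocrine gate (125). Leaving out 1 plate gave 67 to 143 higher and 26 to 47 lower, with 26 without pylorus replicate 1 and 30 without pylorus replicate 2. The cause of these moves was not tested, except that thinning leaves fewer genes. Without the plate as replicate block the gate comparison had 79 genes lower. Of the named genes in this comparison, 4 that had not passed changed sign: Gkn2 (0.0574) and Tff1 (0.0259) on the 4 plates, Jund (0.0422) without TMM scaling, and Pcna on the 4 plates (0.36), without TMM scaling (0.11), with at least 2 rule genes (0.00059), on plates with at least 5 gate wells (0.15), with voom weights (0.12), with at least 2000 UMIs (0.16) and without 1 plate (-0.56 to 0.16, above 0 without corpus replicate 1). Their adjusted p ranged from 0.229 to 0.998. A pseudocount of 0.5 ended the calls of Chgb, Cldn7, Cma1, Pappa2, Pga5, Resp18, Scg5 and Spp1, and leaving out the plate as replicate block those of Cel, Cma1, Gkn3, Hdc, Scg5 and Spp1.

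Against mast wells (60 higher, 24 lower) the counts were 336 and 141 on the 4 plates, 30 and 40 with at least 2 rule genes, 130 and 50 with at least 4, 5 and 11 on thinned counts, 101 and 38 on plates with at least 5 gate wells, 173 and 54 with voom weights, and 99 and 37 with at least 2000 UMIs. A pseudocount of 0.5 gave 34 higher, and no filter gave 43 lower. Leaving out 1 plate gave 20 to 101 higher and 7 to 38 lower.

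Between the regions, 17 genes passed on the 4 plates and 1 with voom weights, and 0 under the other alternatives that were run. The difference in share was -1.22 on the 4 plates, and leaving out 1 plate gave -3.07 to 3.41. As replicate block, the number in the labels gave 3.41 (exact sign flips over 3 pairs, p = 0.25, the smallest they can give). Gate sums of the same number correlated at 0.12, -0.05 and 0.32, so the numbers were not taken as pairs. Fits by other count tools were not run. Gate sums of 16797 to 27397 UMIs on 3 plates limit what can be seen there.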
